A study of Mus musculus with 2 samples.

Results

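Cajal-Retzius cells are the earliest-born neurons of the marginal zone of the cortex, and the cortical hem at its medial edge is one of their main sources. The 8 genes described here mark these cells or the hem: Reln, Trp73, Lhx1, Lhx5, Calb2, Ebf2, Ebf3 and Lmx1a. They are 8 of the 21896 genes measured in RNA of the germinal zones, ventricular and subventricular (VZ–SVZ), dissected from mouse cortex at E13.5, in 1 Rcor2fl/fl and 1 Rcor2cko library. They were chosen by symbol, with their values known: several genes of this kind had been found lower in the Rcor2cko library, so that the lower values below are a description and carry no test.

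Rcor2fl/fl embryos carry floxed Rcor2, the gene of a co-repressor that works with the histone demethylase LSD1, and served as controls. Rcor2cko embryos carry the same floxed alleles with Cre recombinase driven by Nestin, which acts in the whole neural lineage and not in the cortex alone. Both genotypes came from crosses of Rcor2fl/+NesCre mice on a strain labelled C57/BL6. How many embryos went into a library is not stated. With 1 library per genotype the comparison has no replicate check, and every difference is one between these 2 libraries.

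All 8 genes were lower in the Rcor2cko library, Lmx1a and Ebf2 by differences within counting error. Of the 5 that reached 1 FPKM (fragments scaled by transcript length and by the mapped fragments of the library) in at least 1 library, Reln, Calb2, Trp73, Ebf3 and Lhx5, all 5 were more than 1.5-fold lower on FPKM + 0.1, and none was higher. Over all 11777 genes with at least 1 FPKM in a library, 57.6% were lower by any amount. Of the same genes, 1.76% were more than 1.5-fold lower and 3.79% more than 1.5-fold higher. Since the genes were picked with this contrast in view, nothing is read from their count. The other 3, Lhx1, Lmx1a and Ebf2, stayed below 1 FPKM in both libraries. In bulk tissue, fewer cells of a type and less RNA per cell cannot be told apart.

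Reln encodes reelin, a large secreted glycoprotein that Cajal-Retzius cells release and that guides the layering of cortical neurons. Trp73 encodes p73, a transcription factor of the p53 family needed for these cells, and Calb2 the calcium-binding protein calretinin. Lhx1 and Lhx5 are LIM-homeodomain factors, Ebf2 and Ebf3 are helix-loop-helix factors of the Ebf family, and Lmx1a is a LIM-homeodomain factor of the hem and roof plate.

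The sequences before the starts of Reln and Trp73 are shown because Reln is the most abundant of the 8 genes and because Trp73 has a pair of alternative starts whose transcripts the control library measured separately. Each is the 250 bases upstream of the start, 5′ to 3′ on the gene's strand, read from mm9, with the GC box GGGCGG (or its complement CCGCCC) in capitals. All 3 are on the minus strand. Reln lies before its start on chr5:21850524-21850773. For Trp73 the upstream start follows chr4:153514318-153514567 and the internal start follows chr4:153471283-153471532.
Reln: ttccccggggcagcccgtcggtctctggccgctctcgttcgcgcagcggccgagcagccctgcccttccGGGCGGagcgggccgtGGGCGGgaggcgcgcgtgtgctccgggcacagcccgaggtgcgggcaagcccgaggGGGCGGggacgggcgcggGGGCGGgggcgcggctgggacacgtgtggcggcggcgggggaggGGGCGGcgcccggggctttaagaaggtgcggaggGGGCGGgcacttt
Trp73, upstream start: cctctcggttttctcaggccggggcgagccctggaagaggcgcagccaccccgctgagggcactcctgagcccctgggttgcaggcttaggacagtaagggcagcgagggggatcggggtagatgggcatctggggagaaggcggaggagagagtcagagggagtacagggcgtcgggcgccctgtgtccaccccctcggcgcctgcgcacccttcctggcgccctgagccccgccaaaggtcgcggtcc
Trp73, internal start: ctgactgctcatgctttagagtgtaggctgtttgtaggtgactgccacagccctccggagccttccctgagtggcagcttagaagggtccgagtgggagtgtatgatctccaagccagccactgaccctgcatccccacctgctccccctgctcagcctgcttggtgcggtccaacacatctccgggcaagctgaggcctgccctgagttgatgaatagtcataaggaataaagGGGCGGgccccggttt

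The Reln sequence was 80% G and C, with 37 CpG dinucleotides and 6 GC boxes. The sequence before the upstream Trp73 start was 69.6% G and C, with 18 CpG and no GC box, and that before the internal start 58.4%, with 6 CpG and 1 GC box. Over the 22375 starts of protein-coding genes in the GENCODE vM1 annotation with a complete window, the median was 54% G and C and 8 CpG, and 39.6% of windows held a GC box on either strand. Further motifs were searched on both strands: TATAAA, held by 12.3% of all windows, the homeodomain core TAATTA, held by 4.62%, and the Ebf palindrome, TCCC and GGGA with 2 free bases between, held by 0.791%. None of the 3 was found in these 3 windows. A match of letters is a description of the sequence and not a bound site.

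Reln, on chromosome 5 of mm9 from 21390272 to 21850523, spans 460.3 kb. Its control level was 36.5 FPKM, with an FPKM interval in the deposited table from 31.5 to 41.5, and its Rcor2cko level 15.6 FPKM, with an interval from 13.7 to 17.5. The intervals were apart, and the Rcor2cko level was 42.7% of the control level. Low FPKM values fall on steps of whole fragments, so that fragments could be recovered for genes with 1 transcript: 7911 fragments lay behind the control value of Reln and 4561 behind the Rcor2cko value. The log2 ratio without pseudocount was -1.23, with a 95% exact (Clopper-Pearson) interval from -1.28 to -1.18. Intervals of this kind cover counting error only. Reln made up 72.7% of the summed FPKM of the 8 genes in the control and 71.7% in the Rcor2cko library.

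Calb2, on chromosome 8 from 112661402 to 112692110 with 11 exons in its longest annotated transcript, had the lowest ratio of the 8 genes. It was at 4.25 FPKM in the control, from 99 fragments, and at 1.37 FPKM in the Rcor2cko library, from 43 fragments. The intervals of the deposited values, 2.87 to 5.63 and 0.791 to 1.95 FPKM, did not overlap. Its log2 ratio was -1.64, with an interval from -2.19 to -1.11 that holds the value of Reln.

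**Figure D1:**
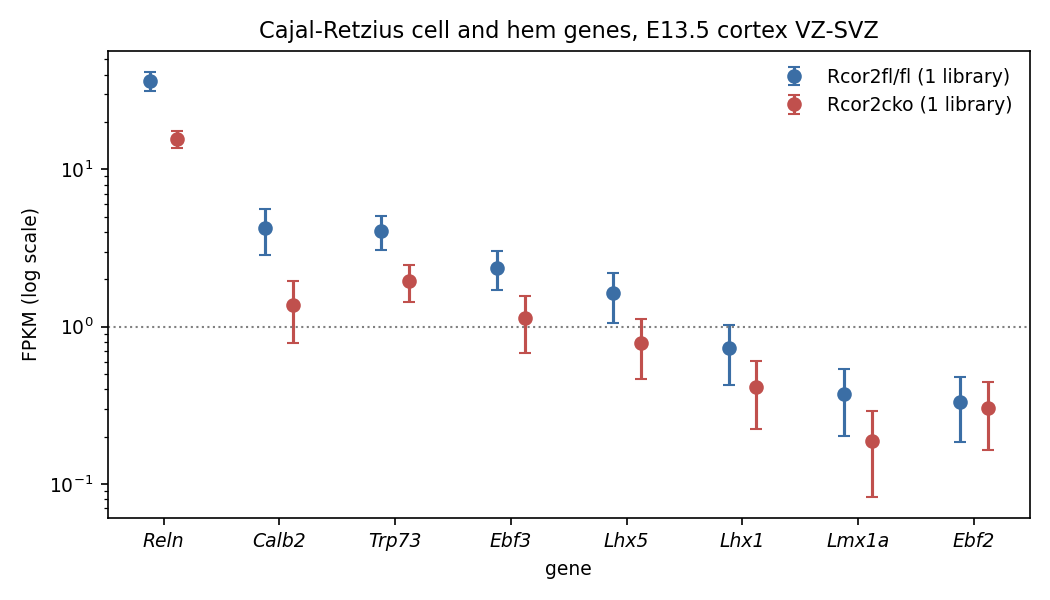
FPKM (log scale) of the 8 genes in the Rcor2fl/fl library (blue) and the Rcor2cko library (red), ordered by control level, with FPKM intervals as bars. The bars are the intervals of the deposited tables, except for the control bars of Trp73 and Ebf3. Those control bars were combined from the intervals of the transcripts, with half-widths added in quadrature. Reln stands highest at 36.5 and 15.6 FPKM, the red point lies below the blue one for all 8 genes, and the bars are apart for Reln, Calb2, Trp73 and Ebf3.

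Trp73, on chromosome 4 from 153430358 to 153514317, was at 4.05 FPKM summed over its 3 transcripts in the control, and at 1.95 FPKM in the Rcor2cko library, 48.1% of the control level. The intervals, 3.09 to 5.02 and 1.43 to 2.47 FPKM, were apart, where the control interval takes the errors of the transcripts as independent. The control transcripts added up to 353.0 fragments. The Rcor2cko library gives 1 value for the whole gene, which corresponds to between 211.9 and 240.6 fragments depending on the transcript length assumed. Over that range the 95% exact interval of the log2 ratio ran from -1.42 to -0.75.

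The upstream start of Trp73 is known to give TAp73, with the transactivation domain, and the internal start ΔNp73, which lacks it. In the control library, NM_011642, at 5046 nt the length of the annotated transcript from the upstream start at 153514317, was at 0.846 FPKM with an interval from 0.311 to 1.38. NM_001126330 is 4 nt longer than the annotated transcript from the internal start at 153471282, which lies 43 kb downstream, and was at 3.21 FPKM with an interval from 2.41 to 4.01. NM_001126331, which shares the start of NM_001126330 in the deposited table, was at 0.000281 FPKM, under 1 fragment. The internal start thus held 79.1% of the Trp73 FPKM of the control and the upstream start 20.9%. The Rcor2cko values were not given by transcript, so that the lower Trp73 level there cannot be assigned to either start. Gm13116, a transcript of the opposite strand, overlaps the internal start in the annotation. The kit was a stranded one, but how the authors used strand in counting is not given in the sources used here, so that reads of the 2 genes may be mixed. The same limit holds for Reln and Ebf2, whose annotated spans also overlap genes of the opposite strand. Among these are Gm10475 and Gm16110 for Reln and the protein-coding Gm6878 for Ebf2.

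**Figure D2:**
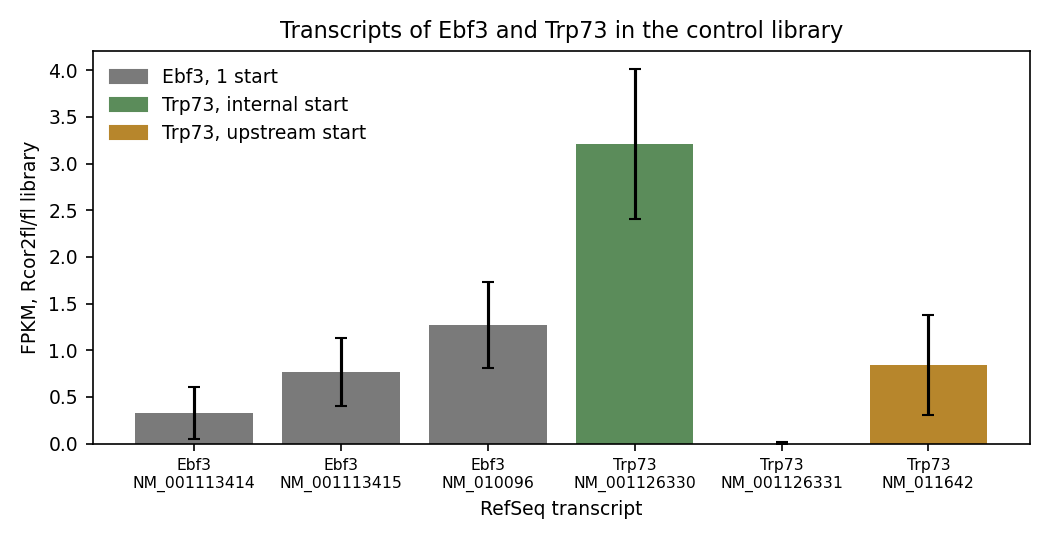
FPKM of the RefSeq transcripts of Ebf3 (grey) and Trp73 (green, internal start, and ochre, upstream start) in the 1 Rcor2fl/fl library, with the FPKM intervals of the deposited table as bars. The internal-start transcript NM_001126330 of Trp73 is the highest at 3.21 FPKM, and its interval does not reach that of the upstream-start transcript at 0.846 FPKM.

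The Ebf factors act in differentiating neurons. Ebf3, on chromosome 7 from 144385356 to 144506128, was at 2.36 FPKM in the control, from 3 transcripts of 1.27, 0.767 and 0.323 FPKM that share 1 start, and at 1.13 FPKM in the Rcor2cko library. The intervals, 1.71 to 3.01 and 0.683 to 1.57 FPKM, were apart, and the Rcor2cko level was 47.9% of the control level. The gap is narrow, and it rests on a control interval that takes the errors of the 3 transcripts as independent. The control fragments added up to 211.0, and the exact interval of the ratio over the possible transcript lengths ran from -1.40 to -0.72. Ebf2, on chromosome 14 from 67852129 to 68048604, was at 0.333 FPKM in the control, from 26 fragments, and at 0.303 FPKM in the Rcor2cko library, from 32 fragments. Its log2 ratio of -0.14 had an interval from -0.93 to 0.67, which includes 0 and leaves out the -1.23 of Reln. No difference in Ebf2 was detectable at this depth. The intervals of Ebf2 and Ebf3 overlapped, and a difference between the ratios of the pair was not tested.

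The same family has further members in these libraries. Ebf1, which also marks striatal neurons, was at 0.699 FPKM in the control, from 27 fragments, and reached 2.46 FPKM in the Rcor2cko library, from 128 fragments, with FPKM intervals apart and a log2 ratio of 1.81. Ebf4 was at 5.08 and 5.98 FPKM, a log2 ratio of 0.23 with an interval from -0.01 to 0.47. Ebf1 was therefore higher in the same library in which Ebf3 was lower.

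Lhx5, on chromosome 5 from 120881895 to 120891466, was at 1.63 FPKM in the control, from 78 fragments, and at 0.790 FPKM in the Rcor2cko library, from 51 fragments. It passed 1 FPKM through the control library alone. Its deposited intervals, 1.06 to 2.20 and 0.466 to 1.11 FPKM, overlapped narrowly, while the log2 ratio of fragments was -1.05 with an interval from -1.59 to -0.52. Lhx1, on chromosome 11 from 84331479 to 84338923, was at 0.727 FPKM in the control, from 35 fragments, and its Rcor2cko level was 0.416 FPKM, from 27 fragments. Its log2 ratio of -0.81 had an interval from -1.59 to -0.04. Lhx2, a LIM-homeodomain selector gene of the cortex that restrains the hem, was far more abundant, at 130.0 and 88.5 FPKM, with a log2 ratio of -0.56 and an interval from -0.62 to -0.50. Lhx9 was at 4.92 and 3.31 FPKM.

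Lmx1a, on chromosome 1 from 169619370 to 169778872, marks the hem itself rather than the neurons it gives rise to, and was scarce in both libraries. It was at 0.371 FPKM in the control, from 22 fragments, and at 0.188 FPKM in the Rcor2cko library, from 15 fragments, which is 50.5% of the control level. The log2 ratio of -0.99 had an interval from -2.04 to 0.02, so that its difference lay within counting error. Its relative Lmx1b was listed at 0 in both libraries.

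**Figure D3:**
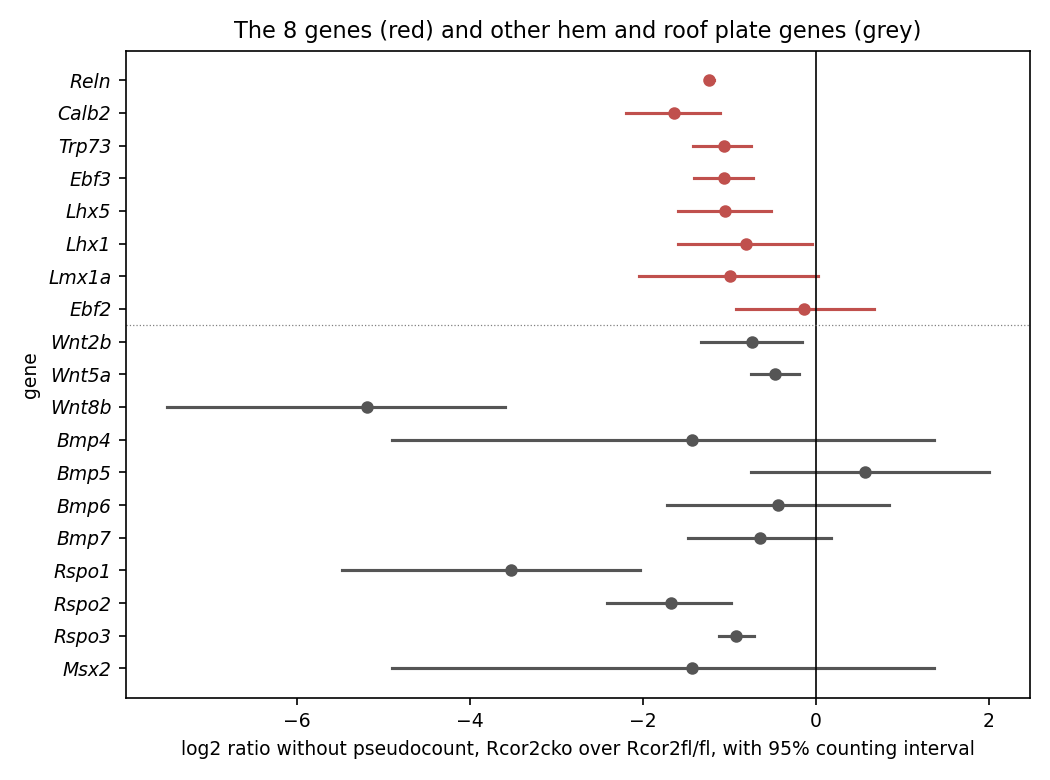
Log2 ratio of Rcor2cko over Rcor2fl/fl without pseudocount (points) with 95% exact counting intervals (lines) for the 8 genes (red) and for the other hem and roof plate genes with fragments in both libraries (grey). For Trp73 and Ebf3 the line covers the possible transcript lengths. The intervals of Ebf2 and Lmx1a reach 0 and those of the other 6 red genes do not, and Wnt8b lies lowest at -5.19.

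Set beside each other, the levels in the control library followed the order Reln, Calb2, Trp73, Ebf3, Lhx5, Lhx1, Lmx1a and Ebf2 in FPKM, a unit that allows genes of different length to be compared. The FPKM intervals of neighbours in this order overlapped for Calb2 and Trp73, Ebf3 and Lhx5, Lhx1 and Lmx1a, and Lmx1a and Ebf2, while Reln stood apart from all others. In the Rcor2cko library, Trp73 at 1.95 FPKM stood above Calb2 at 1.37 FPKM, with overlapping intervals. Nothing is read from the medians and counts that follow, since the genes were picked with this contrast in view. The log2 ratios of (FPKM + 0.1) had a median of -0.98 over the 8 genes and -1.02 over the 5 at 1 FPKM or more, beside -0.03 over all 11777 genes. When the FPKM intervals of the 2 libraries were also required not to overlap, 4 of these 5 genes were more than 1.5-fold lower, beside 0.688% of the 11777 genes. Among them Ebf3 passed by the narrow gap given above.

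**Figure D4:**
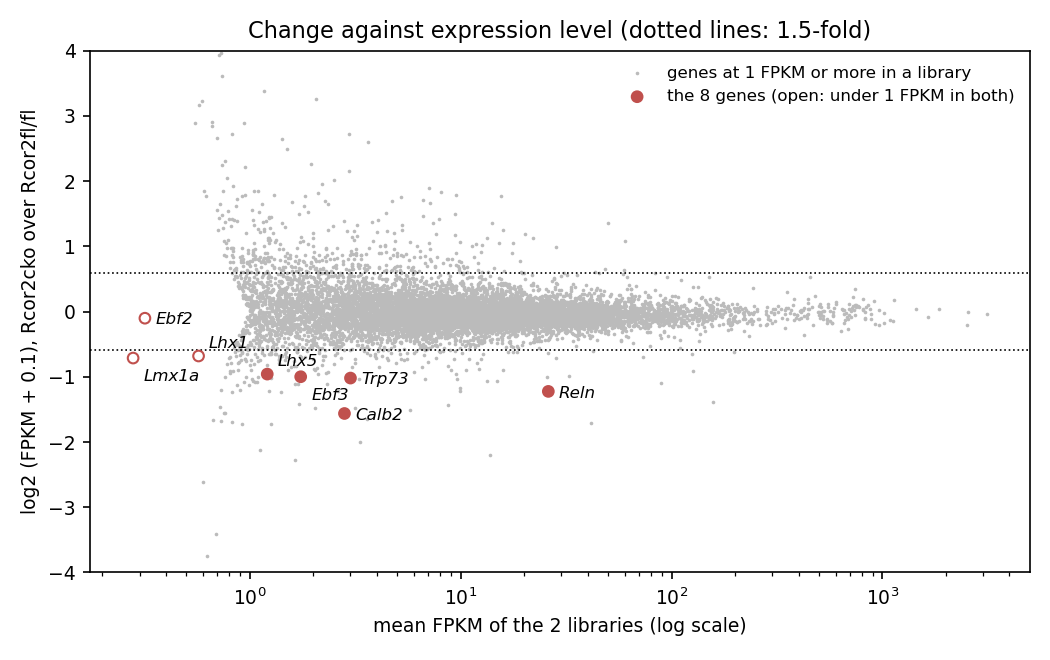
Log2 ratio between the libraries on FPKM + 0.1 (below 0 where Rcor2cko is lower), against the mean FPKM of the 2 libraries (log scale) for the genes at 1 FPKM or more in a library (grey) and the 8 genes (red, open where under 1 FPKM in both). Dotted lines mark 1.5-fold, and 22 genes lie beyond the plotted range. Reln, with a ratio of -1.22, is the 9th lowest of the 8539 genes with a mean of at least 5 FPKM, and Ebf2 alone of the 8 lies between the dotted lines. No meaning is read from the rank, since the 8 genes were picked with this contrast in view.

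Of 9 other genes of Cajal-Retzius cells found in the files, 6 reached 1 FPKM, and they did not move one way: 2 were more than 1.5-fold lower, 2 higher and 2 neither. Under each of the 4 other scalings 1 was lower, since Nhlh2 no longer passed 1.5-fold. Nhlh2, a helix-loop-helix factor, went from 9.91 to 6.51 FPKM, a log2 ratio of -0.61 with an interval from -0.78 to -0.44. A930038C07Rik, an older symbol of Ndnf, went from 1.75 to 1.01 FPKM, a log2 ratio of -0.80 with an interval from -1.16 to -0.44. Cxcr4, the chemokine receptor that holds Cajal-Retzius cells beneath the meninges and is found in interneurons too, was at 14.6 and 11.4 FPKM. The genes past 1.5-fold higher were Ebf1, given above, and the noncoding RNA Snhg11, at 1.71 and 3.48 FPKM. Over the 9 genes, 7 were lower and 2 higher, with a median log2 ratio of -0.35.

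The hem itself secretes Wnt and bone morphogenetic proteins, and R-spondins strengthen Wnt signals. Of 14 such genes of the hem and roof plate, 11 were lower and 3 higher in the Rcor2cko library, with a median of -0.59, but 10 stayed under 1 FPKM in both. Of the 4 at 1 FPKM or more, 3 were more than 1.5-fold lower. Wnt8b, a Wnt ligand of the medial pallium, was at 1.35 FPKM in the control, from 81 fragments, and at 0.0371 FPKM in the Rcor2cko library, from 3 fragments. Its log2 ratio was -5.19, with an interval from -7.50 to -3.59. Rspo1 went from 1.10 to 0.0961 FPKM, from 34 and 4 fragments, a log2 ratio of -3.52 with an interval from -5.48 to -2.04. Rspo3, the most abundant of the list, went from 11.8 to 6.26 FPKM, from 489 and 350 fragments, a log2 ratio of -0.92 with an interval from -1.12 to -0.72. Wnt8b and Rspo1 passed 1 FPKM through the control library alone.

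Below 1 FPKM, Rspo2 was at 0.995 and 0.313 FPKM, a log2 ratio of -1.67 with an interval from -2.41 to -0.98. Wnt3a, the ligand that defines the hem, was at 0.311 FPKM in the control, from 15 fragments, and listed at 0 in the Rcor2cko library. Taking 3 fragments in that library as the upper limit of a count of 0, it was at least 6.76-fold lower. With the counting error of the control included, the exact interval of its log2 ratio ended at -2.28. Wnt2b was at 0.911 and 0.547 FPKM, a log2 ratio of -0.74 with an interval from -1.33 to -0.16. Wnt5a was at 2.86 and 2.07 FPKM and less than 1.5-fold lower. Bmp4, Bmp5, Bmp6, Bmp7 and Msx2 had intervals that include 0, and Gdf7 and Msx1 were listed at 0 in the control and rested on 3 and 2 fragments in the Rcor2cko library.

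The antihem at the lateral edge of the cortex and the septum are further sources of Cajal-Retzius cells. Of 11 genes of these regions, 5 were lower, 5 higher and 1 listed at 0 in both libraries, and among the 6 at 1 FPKM or more, 2 were past 1.5-fold lower and 1 higher. Zic1, a zinc finger gene of the septum and medial pallium, went from 5.52 to 1.70 FPKM, a log2 ratio of -1.71 with an interval from -2.00 to -1.41, and Zic2 from 4.98 to 2.99 FPKM, a log2 ratio of -0.74 with an interval from -1.01 to -0.47. Tgfa, an epidermal growth factor receptor ligand of the antihem, was higher, at 1.01 and 3.52 FPKM, a log2 ratio of 1.79 with an interval from 1.44 to 2.17. Sfrp2, a secreted Wnt antagonist of the antihem, was at 8.34 and 10.6 FPKM, and Dbx1, which marks progenitors of septal and ventral pallial Cajal-Retzius cells, rested on 1 and 3 fragments.

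Reelin acts through the receptors Vldlr and Lrp8 and the adaptor Dab1, which Src family kinases phosphorylate in migrating neurons. Of 23 genes of this pathway, all at 1 FPKM or more in at least 1 library, none was more than 1.5-fold lower and 1 was higher. Vldlr was at 7.33 FPKM in the control and 9.33 FPKM in the Rcor2cko library, Lrp8 at 51.6 and 61.8 FPKM, and Dab1 at 51.1 and 46.4 FPKM, each with overlapping FPKM intervals. The kinase Fyn was at 50.3 and 53.2 FPKM. The gene past 1.5-fold was Pvrl1, the cell adhesion protein nectin-1, at 2.68 and 4.47 FPKM, a log2 ratio of 0.74 with an interval from 0.52 to 0.96. The median of the list was 0.05, and its summed FPKM was 795.5 in the control and 797.5 in the Rcor2cko library.

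Calb2 and Reln are also expressed by some GABAergic interneurons, whose genes were mostly higher in the Rcor2cko library. Of 11 genes of GABAergic neurons, 10 were past 1.5-fold higher and none lower, with a median log2 ratio of 1.49. Gad1 was at 4.65 and 10.7 FPKM and Sst at 6.95 and 24.1 FPKM, while Lhx6 was at 10.4 and 10.7 FPKM. Calb1, the calbindin relative of Calb2 and a marker of several interneuron types, was at 0.496 and 1.78 FPKM, from 25 and 121 fragments, a log2 ratio of 1.84 with an interval from 1.21 to 2.52. By immunostaining at a later stage, the paper reports enriched calretinin, the Calb2 protein, in the dorsal cortex of Rcor2cko embryos. The lower Calb2 value here is of RNA at the earlier stage, so that the 2 are not the same measure. The part of interneuron RNA in the Reln and Calb2 values was not tested.

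**Figure D5:**
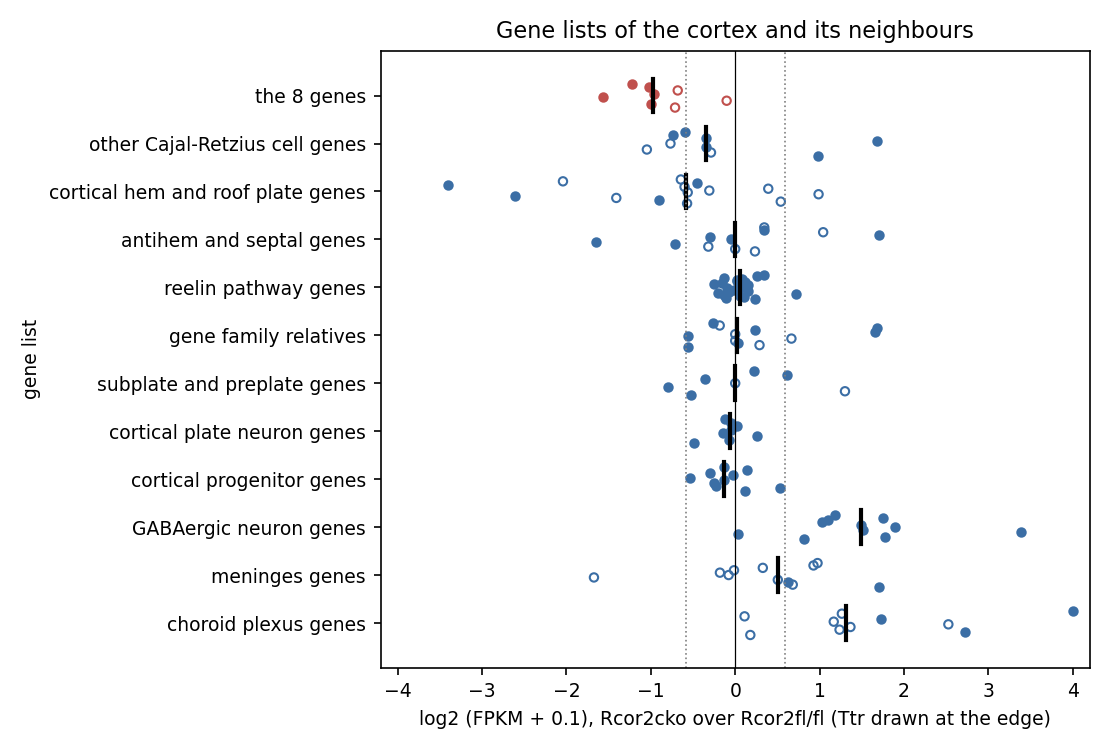
Log2 ratio between the libraries on FPKM + 0.1 (above 0 where Rcor2cko is higher) of each gene (points, open where under 1 FPKM in both libraries) in the 8 genes (red) and 11 other lists (blue), with the median of each list as a black bar and 1.5-fold as dotted lines. The 8 genes have a median of -0.98, the reelin pathway list lies around 0 with a median of 0.05, and the GABAergic neuron list has a median of 1.49. Ttr is drawn at the edge.

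Cajal-Retzius cells lie at the surface of the cortex and not in the VZ–SVZ, so the markers of other cells that the dissection could hold are given beside them. The progenitor marker Vim was at 307.5 and 302.9 FPKM, and the neuronal marker Tubb3 at 568.5 and 521.4 FPKM, so that both libraries held RNA of neurons. None of 8 cortical plate neuron genes and none of 10 progenitor genes was past 1.5-fold, with medians of -0.06 and -0.14. Of 7 subplate and preplate genes, 5 reached 1 FPKM, of which Nxph4 was lower, at 15.2 and 8.73 FPKM, and Nr4a2 higher, at 4.81 and 7.39 FPKM. Of 11 meninges genes, 2 reached 1 FPKM, Cxcl12 at 12.6 and 19.5 FPKM and Crabp2 at 2.18 and 7.30 FPKM, both higher, and over the whole list 7 genes were higher and 4 lower. Below 1 FPKM, Col1a2 was higher, at 0.257 and 0.580 FPKM, from 24 and 73 fragments, and Dcn, the fibroblast proteoglycan decorin, was lower, at 0.533 and 0.0985 FPKM with FPKM intervals apart. The defining markers Col1a1 and Foxc1 were at 0.0707 and 0.236 FPKM and at 0.419 and 0.414 FPKM. All 10 choroid plexus genes were higher, with a summed level of 1.19 FPKM in the control and 63.6 FPKM in the Rcor2cko library, most of it from Ttr, listed at 0 and at 57.8 FPKM. Of these genes 7 stayed under 1 FPKM in both libraries, among them Kl, from 0 and 1 fragments, and Prlr, from 3 and 8 fragments with an interval that includes 0. The choroid plexus adjoins the hem at the medial edge, and the part of the dissection in the lower hem and Cajal-Retzius genes was not tested.

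The low-value steps gave scaling totals of 18841684 fragments in the Rcor2fl/fl and 25479853 in the Rcor2cko library. Rcor2, the targeted gene, was at 90.6 and 55.7 FPKM over its whole transcript, which does not measure the deleted part alone. Xist was at 176.7 and 0.109 FPKM and the Y-linked Eif2s3y listed at 0 and at 19.8 FPKM, so that sex and genotype cannot be told apart in this pair.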

How the data were processed

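RNA of the E13.5 VZ–SVZ was measured in 1 library per genotype. The authors isolated RNA with RNeasy columns and built stranded mRNA libraries. The submitters' processing notes name TopHat 1.3.3, Cufflinks 1.2.0 and mm9, and the paper's methods a later TopHat and Cuffdiff. They deposited FPKM values with interval bounds, per RefSeq transcript (27641 rows) for Rcor2fl/fl and per gene (21896 rows) for Rcor2cko. Transcripts were summed per gene, and their interval half-widths were added in quadrature. Ratios used a pseudocount of 0.1 FPKM, which understates changes of low genes, and calls needed at least 1 FPKM in a library and more than 1.5-fold.

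Whole fragments were derived, for 14350 single-transcript genes of 1000 nt or longer that Cufflinks marked OK, from FPKM times length less a fitted offset of 194.1 nt (Rcor2fl/fl) and 200.9 nt (Rcor2cko). Of the values up to 100 fragments, 99.3% and 99.4% lay within 0.1 of a whole number. For a transcript of 2000 nt, 3 fragments correspond to 0.0882 and 0.0654 FPKM. The recovery was tested on data simulated with the same formula, which checks the fit and not the formula itself. Whether values above 100 fragments, such as those of Reln, fall on whole steps was not checked. No test across genes was made.

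Positions and upstream bases are from NCBIM37 (mm9) with GENCODE vM1. All 8 members and the gene lists were chosen with earlier results of these data known. Named were all 8 genes, list genes past 1.5-fold or defining their list (for the GABAergic and choroid plexus lists, examples), reelin receptors and Dab1, Rcor2, and the 5 genes nearest to Reln in ratio with a mean of at least 5 FPKM. Ebf4, Lhx2, Lhx9, Sfrp2, Fyn and genes with values under 1 FPKM were named after their values were seen. Alternatives were other pseudocounts, scalings, filters, fold thresholds, non-overlapping intervals, the highest row per gene and the ratio of fragments. Python 3.11.15, numpy 2.4.6, pandas 2.3.3, scipy 1.17.1 and matplotlib 3.10.9 were used.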

Additional observations from a re-analysis of the deposited data

How the results depend on the processing

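All 8 genes stayed lower under the 4 scalings, which moved the median of all genes by 0.02 to 0.03 on the log2 scale. The number more than 1.5-fold lower, 5, became 1 when at least 5 FPKM in a library was required, which Reln alone met, 3 above 2-fold on FPKM + 0.1 (Reln, Calb2 and Trp73; without the pseudocount Ebf3 and Lhx5 were 2.09-fold and 2.06-fold lower), and 3 from fragment ratios, which only 3 of the 5 genes have. It was between 4 and 7 under the 10 other alternatives, with 0.688% to 3.07% of the genes that each setting kept lower. The 7 came without a filter, where that share was 3.07%. The share was 0.79% with at least 5 FPKM in a library and 0.526% above 2-fold. For the fragment ratios no share over all genes was computed. With the highest row per gene, which lowers only the control, Ebf3 changed by -0.15 and Trp73 by -0.69. With a pseudocount of 1, Ebf3 changed by -0.66 and was still past 1.5-fold, while Lhx5 changed by -0.55 and was not. Reln ranged from -1.23 to -1.18 and Calb2 from -1.64 to -1.15. No paired analysis was possible because neither genotype has a replicate. Depth limits Lmx1a and Ebf2 most, with 15 to 32 fragments.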

Other observations

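Among the 11777 genes at 1 FPKM or more in a library, Calb2 was 22nd, Reln 34th, Trp73 57th, Ebf3 63rd and Lhx5 68th from the lowest log2 ratio of (FPKM + 0.1). Among the 8539 of them with a mean of at least 5 FPKM, Reln was 9th. These ranks carry no weight as evidence, since the genes were picked with this contrast in view. The 5 genes of that abundance nearest to the ratio of Reln, over the 2 libraries only, were Zfp521, Hist1h4i, Snora16a, Bcan and Igfbp3. Zfp521, a zinc finger factor, went from 14.0 to 5.94 FPKM, from 1568 and 900 fragments, a log2 ratio of -1.24 with an interval from -1.36 to -1.12. Igfbp3 went from 18.0 to 8.54 FPKM and Bcan, the matrix proteoglycan brevican, from 20.2 to 9.57 FPKM, both with FPKM intervals apart. Hist1h4i went from 13.8 to 6.07 FPKM. Snora16a, of 136 nt, had overlapping FPKM intervals that reach 0.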
